A study of Mus musculus with 2 samples.

Results

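Hepatokines are proteins that the liver releases into the blood and that act on other organs. The genes described here are 9 of the 32285 gene identifiers in the deposited tables: Ahsg, Fetub, Lect2, Selenop, Rbp4, Inhbe, and the angiopoietin-like genes Angptl4, Angptl6 and Angptl8. They were chosen by name as the rows of both tables that carry these symbols, and each symbol occurs in 1 row.

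The data are spatial transcriptomics (ST) counts of liver, with 1 section from 1 mouse on each diet, NCD or HFD. NCD is the control diet and HFD a high-fat diet named by its 60% fat. Both animals were male C57BL/6J mice bought at 5 weeks of age, kept for 1 week before the diets, fed NCD or HFD for 14 weeks, and then given distilled water by mouth daily for 8 weeks. The livers were perfused, frozen and cut, and RNA was captured in place on a grid of barcoded spots, each of which can cover several cells. Of the spots, 3692 lay over NCD tissue and held 29037988 unique molecular identifiers (UMIs), with a median of 4187.5 each. Over HFD tissue 3594 spots held 72118803 UMIs, with a median of 18549. The diet, the animal and the section cannot be told apart, because each diet has 1 section. There is therefore no replicate check and no test, and every interval given is a 95% interval for counting error only.

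The labels name the tissue as liver, and also name a hematopoietic stem cell and an immune cell. The hepatocyte markers Alb, Apoa1, Cyp2e1, Mup3 and Pck1 together reached 82801 counts per 1000000 UMIs (CPM) in the NCD section and 75919 CPM in the HFD section, with Alb the most abundant. A list of 6 hematopoietic stem cell markers summed to 55.4 CPM and 87.8 CPM, led by Ly6a, and Kit, a defining marker, stood at 3.06 and 3.02 CPM. Of the immune cell lists, the T cell markers summed to 8.16 and 5.77 CPM and the B cell markers to 29.7 and 9.33 CPM. The macrophage markers summed to 75.5 and 99.3 CPM. The counts are those of liver tissue, in which the markers of the other labelled cells are scarce beside those of hepatocytes.

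The 9 genes work in a few connected ways. Ahsg (fetuin-A) and Fetub (fetuin-B) encode related protease inhibitors of plasma, and fetuin-A also binds the insulin receptor and blocks its kinase. The products of Angptl4 and Angptl8 steer fat from the blood towards or away from tissues by acting on lipoprotein lipase, while Selenop and Rbp4 encode plasma carriers of selenium and of retinol. Lect2 encodes a chemotactic factor that links liver fat with insulin resistance in muscle, and Inhbe encodes the subunit of activin E, which restrains fat breakdown in adipose tissue.

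The first comparison asks how the level of each gene differed between the HFD and the NCD section. Inhbe, Angptl8 and Selenop were higher by at least 1.5-fold in the HFD section, Fetub was lower by at least 1.5-fold, and the other 5 genes lay within 1.5-fold. Of the 11913 genes whose UMIs summed to at least 100, 25.5% were higher and 5.01% lower by that fold, so 3 of 9 higher and 1 of 9 lower is not far from the share of all genes. The median log2 ratio of HFD over NCD was 0.29 over the 9 genes and 0.24 over the 11913 genes. Ratios are therefore also given relative to this shift of 0.24. Together the 9 genes made up 1.45% of all NCD and 1.80% of all HFD UMIs.

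**Figure D1:**
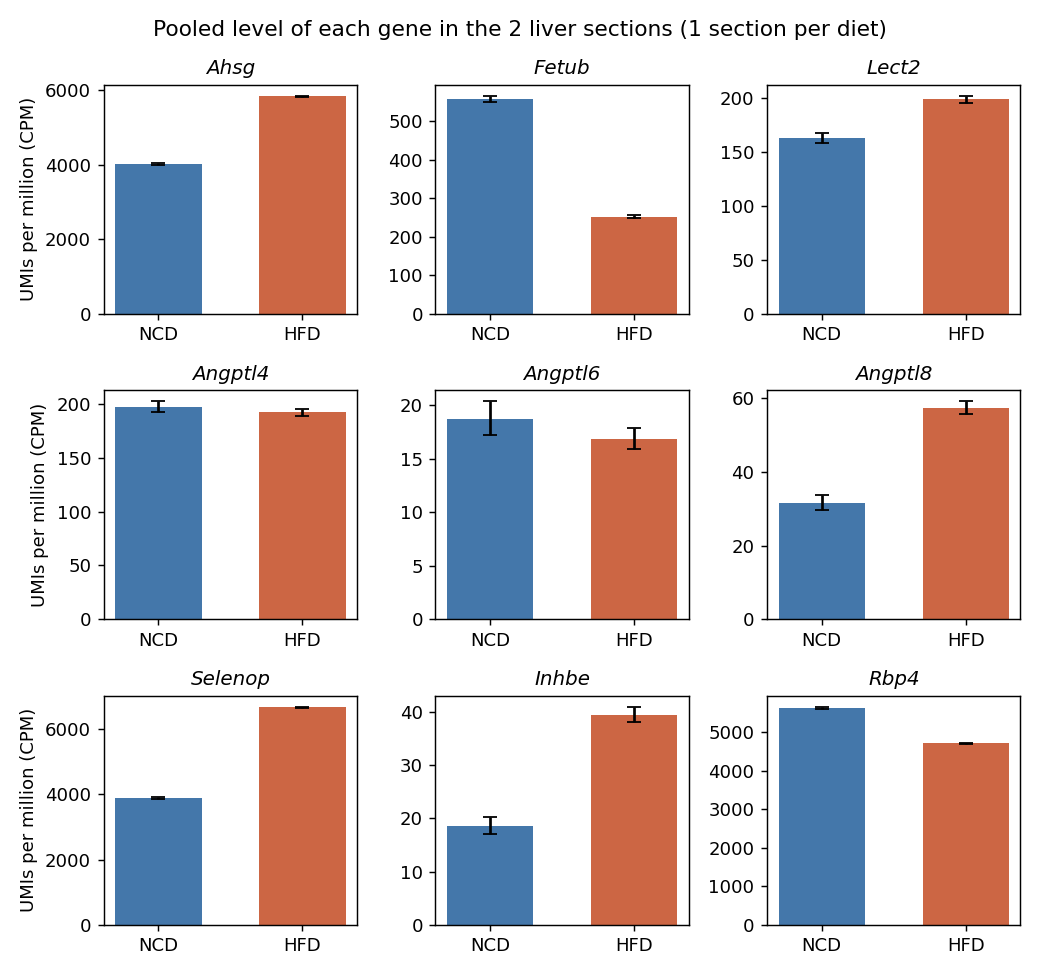
CPM of each gene in the NCD and the HFD section, all spots over tissue pooled, with 95% Poisson intervals for counting error; each panel has its own axis from 0. Fetub fell from 558 to 252 CPM, Inhbe, Angptl8 and Selenop stood higher in the HFD section, and the Angptl4 intervals of both sections overlap.

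The 2 fetuin genes lie side by side in the genome and moved in opposite directions. Ahsg had 4025 CPM in the NCD section (4002 to 4048) and 5833 CPM in the HFD section (5815 to 5850). This is a 1.45-fold higher level, a log2 ratio of 0.54 (0.53 to 0.54), or 0.29 relative to the shift of all genes. Fetub, whose product keeps the egg coat penetrable by inhibiting the protease ovastacin, had 558 CPM in the NCD section (549 to 566) and 252 CPM in the HFD section (248 to 256). Its level was 2.21-fold lower, with a log2 ratio of -1.15 (-1.18 to -1.12), or -1.39 relative to the shift, and 98.4% of the 11913 genes had a higher ratio. As in any sample of mixed tissue, fewer cells that make a transcript and less of it per cell cannot be told apart.

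UMIs were also read in spots called off tissue, and these fetuin values change with how they are treated. In the NCD section, the 1300 spots off tissue held 19.1% of all UMIs, against 2.93% in the 1398 spots off tissue of the HFD section. Those NCD spots had more Fetub (671 CPM) and more Ahsg (4671 CPM) than the spots over tissue. The NCD spots off tissue had a median of 3383 UMIs and a mean of 5285, so RNA that spread from the tissue and tissue lying under spots called off tissue cannot be told apart without the spot positions, which were not used here. Subtracting that mean takes away 67.2% of the UMIs over NCD tissue and 7.76% of those over HFD tissue, and in the case of tissue under such spots it takes away tissue signal. When the mean count of spots off tissue was subtracted from every spot over tissue, Fetub had 326 CPM in the NCD section and 254 CPM in the HFD section, a log2 ratio of -0.36 that no longer passed 1.5-fold, and Ahsg had 2700 and 5978 CPM, a log2 ratio of 1.15 that did. The direction of both genes was kept. With all spots of the capture area that had at least 1000 UMIs, an alternative chosen after seeing the data that does not use the tissue call, the log2 ratios were -1.21 for Fetub and 0.48 for Ahsg.

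Among the angiopoietin-like genes, Angptl8 stood higher in the HFD section and the other 2 differed little. Angptl8, whose product helps to block lipoprotein lipase in muscle and heart after feeding, had 31.6 CPM in the NCD section (29.6 to 33.8) and 57.4 CPM in the HFD section (55.7 to 59.2). The level was 1.81-fold higher, with a log2 ratio of 0.86 (0.76 to 0.96), or 0.62 relative to the shift. The intervals of both sections lie well apart.

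Angptl4, a fasting-induced inhibitor of lipoprotein lipase and a target of PPAR-alpha, had 198 CPM in the NCD section (193 to 203) and 193 CPM in the HFD section (190 to 196). Its log2 ratio was -0.04 (-0.08 to 0.01), and no difference was detectable within counting error, although relative to the shift of all genes it was -0.28. Angptl6, which in mice raises energy expenditure, had 18.7 CPM in the NCD section (17.2 to 20.4) and 16.9 CPM in the HFD section (15.9 to 17.8), a log2 ratio of -0.15 (-0.30 to -0.00) that is -0.40 relative to the shift. No direction is given for Angptl4 or Angptl6, since subtracting the spots off tissue turned the ratios to 0.04 and 0.29, and a band of spots with 10000 to 20000 UMIs, chosen after seeing the data, turned that of Angptl6 to 0.08.

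The 2 plasma carriers differed in direction. Selenop, which supplies selenium to brain and testis, had 3890 CPM in the NCD section (3867 to 3913) and 6672 CPM in the HFD section (6653 to 6691). This is 1.72-fold higher, a log2 ratio of 0.78 (0.77 to 0.79). Relative to the shift of all genes the value was 0.53, which is under 1.5-fold.

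Rbp4, which carries retinol from the liver in a complex with transthyretin, had 5625 CPM in the NCD section (5598 to 5653) and 4706 CPM in the HFD section (4690 to 4721). The log2 ratio was -0.26 (-0.27 to -0.25), or -0.50 relative to the shift. Rbp4 was the lower in the HFD section on every scale tried, but by less than 1.5-fold. With spots off tissue subtracted its log2 ratio was also -0.50.

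Inhbe had the highest ratio of the 9 genes. It stood at 18.6 CPM in the NCD section (17.0 to 20.2) and 39.5 CPM in the HFD section (38.1 to 41.0), a 2.13-fold higher level. The log2 ratio was 1.09 (0.96 to 1.23), or 0.85 relative to the shift, and 9.02% of the 11913 genes had a higher ratio. Lect2 had 163 CPM in the NCD section (158 to 168) and 199 CPM in the HFD section (195 to 202), a log2 ratio of 0.29 (0.24 to 0.33) that is 0.04 relative to the shift. The ratio varied with the setting, from -0.13 with spots off tissue subtracted to 0.48 as a mean of CPM per spot and 0.49 with spots drawn down to 1000 UMIs.

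Depth differed between the sections, and so did the share of spots in which a gene was seen. Inhbe had a UMI in 12.4% of the 3692 NCD spots and in 49.4% of the 3594 HFD spots. When spots were drawn down to 3000 UMIs each, leaving out 1585 NCD and 56 HFD spots, the shares were 5.55% (4.61 to 6.62, exact binomial) and 11.4% (10.4 to 12.5). The order of the sections is the same as in CPM.

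For Fetub the order of the sections turned with depth. It had a UMI in 73.5% of NCD spots and in 95.3% of HFD spots as sequenced, but in 82.1% (80.4 to 83.7) and 52.9% (51.3 to 54.6) at 3000 UMIs. Angptl8 was seen at that depth in 9.07% (7.87 to 10.4) of NCD and 15.0% (13.8 to 16.2) of HFD spots, and Angptl4 in 43.3% of spots in both sections. Ahsg, Selenop and Rbp4 had a UMI in 100% of the 2107 NCD and 3538 HFD spots at 3000 UMIs. Angptl6 was seen in 6.03% and 5.40% of spots. Inhbe, Angptl6 and Angptl8 were also read in NCD spots off tissue, at 20.5, 20.8 and 30.3 CPM, and how much of their shares over tissue is RNA from elsewhere was not tested.

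Markers of other cell types differed between the sections as well. All 4 red blood cell markers, led by Hbb-bs, were lower, with a sum of 6676 CPM in the NCD and 1246 CPM in the HFD section. Of the 4 hepatic stellate markers 3 were higher, and their sum went from 45.3 CPM, led by Igfbp3, to 133 CPM, led by Col3a1. Of the 4 macrophage markers, led by Clec4f, 2 were higher, with sums of 75.5 and 99.3 CPM. Of the 5 hepatocyte markers 2 were lower, Cyp2e1 and Mup3. Of the 5 epithelial markers, led by Krt8, 4 were higher, with sums of 355 and 696 CPM, and of the 5 endothelial markers, led by Oit3, 3 were, with 55.3 and 84.3 CPM. Of the 4 smooth muscle markers, led by Tagln, 3 were higher, with 25.9 and 68.7 CPM. The B cell markers summed to 29.7 and 9.33 CPM, of which Ighm held 26.4 and 6.66 CPM, so the lower sum is mainly that of 1 gene. Of the 2 B cell markers with at least 100 UMIs, only Ighm was lower, and Cd79b had a log2 ratio of -0.04. The part of these shifts in the values of the 9 genes was not tested. Adipocytes also make Rbp4, Angptl4 and Angptl8, and the adipocyte markers summed to 0.482 and 7.24 CPM. Cfd held 10 of the 14 NCD UMIs and 511 of the 522 HFD UMIs of that list, so the higher sum is that of 1 gene. Retn and Plin1 had 3 and 1 UMIs in the NCD section and 4 each in the HFD section, with Adipoq and Lep at 0 in the NCD section and Lep at 0 in the HFD section.

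The second comparison asks where in the liver lobule each gene was higher. Blood enters the lobule at the portal tract and leaves at the central vein, and hepatocytes along this path divide their work. Each spot with at least 1000 UMIs and at least 20 UMIs of placing markers was placed by the share of pericentral UMIs (Cyp2e1, Glul, Oat, Cyp1a2, Slc1a2, Rhbg, Gulo) among these and the periportal ones (Cyp2f2, Hal, Sds, Gls2, Ctsc, Uroc1, Etnppl). This placed 2326 NCD and 3539 HFD spots, which were split within each section into 3 equal groups, periportal, midlobular and pericentral. None of the 9 genes is a placing marker.

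The placing was checked on 13 other markers. All 7 pericentral check markers were higher in pericentral than in periportal spots of both sections, with log2 ratios of their sums of 1.47 and 1.57, and all 6 periportal ones were lower, with -0.72 and -0.74. The pericentral placing markers themselves fell from 11089 to 6300 CPM between the sections, so a group of spots holds an order within its section and not the same place in both. Periportal HFD spots were the deepest of that section, with a median of 24327.5 UMIs against 17564 in pericentral ones. In the NCD section the medians were 8718 and 7223.5 UMIs.

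In the NCD section 1 of the 9 genes, Lect2, was at least 1.5-fold higher in pericentral spots, where 6.62% of all genes tested were, and 0 were at least 1.5-fold higher in periportal spots, where 2.99% were. In the HFD section 2 of the 9, Lect2 and Inhbe, passed towards the pericentral side, against 4.69% of genes tested, and 0 towards the periportal side, against 4%. The median log2 ratio of pericentral over periportal was 0.20 in both sections for the 9 genes. Over all genes tested it was 0.13 in the NCD and 0.08 in the HFD section.

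Lect2 was graded along the lobule in both sections. In the NCD section it had 63.7 CPM in periportal spots (58.6 to 69.1), 158 CPM in midlobular spots and 303 CPM in pericentral spots (291 to 315). In the HFD section the levels were 92.6 (89.1 to 96.1), 195 and 346 CPM (338 to 354). The log2 ratio of pericentral over periportal was 2.25 (2.12 to 2.38) and 1.90 (1.84 to 1.97). Over 10 equal bins of position Lect2 rose at 9 of 9 steps in both sections, from 36.6 to 357 CPM in the NCD and from 56.6 to 459 CPM in the HFD section. Its highest bin was 9.76-fold and 8.11-fold above its lowest.

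Inhbe and Rbp4 leaned to the pericentral side as well, by less. Inhbe had 15.0 CPM in periportal, 18.5 in midlobular and 21.7 in pericentral spots of the NCD section, and 31.1, 40.0 and 50.4 CPM in those of the HFD section. The log2 ratios were 0.53 (0.20 to 0.87) and 0.69 (0.57 to 0.82). The NCD value was above 1.5-fold in 5 of the 10 alternative settings that could change it, among them 0.82 with the outer bins of a 5-part split, and the HFD value fell below it in 1, 0.51 with spots drawn down to 1000 UMIs. Rbp4 had 5147 and 6142 CPM in periportal and pericentral NCD spots and 4193 and 5350 CPM in HFD spots, log2 ratios of 0.26 and 0.35. In the HFD section both genes rose at 9 of 9 steps over the 10 bins.

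Ahsg and Selenop leaned to the periportal side. Ahsg had 4249 CPM in periportal and 3799 CPM in pericentral NCD spots, a log2 ratio of -0.16 (-0.18 to -0.14). Among HFD spots it had 6811 and 4787 CPM, a ratio of -0.51 (-0.52 to -0.50), and it fell at 9 of 9 steps over the bins, from 7284 to 4533 CPM. Selenop had 4393 and 3307 CPM in the NCD section, a ratio of -0.41 (-0.43 to -0.39), and fell there at 9 of 9 steps. In the HFD section it had 6916 and 6415 CPM, a ratio of -0.11 (-0.12 to -0.10). The gradient of Ahsg was thus the steeper in the HFD section, and that of Selenop in the NCD section.

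Fetub had ratios of opposite sign in the 2 sections. It had 518 CPM in periportal spots (503 to 533) and 599 CPM in pericentral spots (582 to 616) of the NCD section, with 0.21 (0.15 to 0.27) for the log2 ratio. HFD spots had 262 CPM (256 to 268) and 241 CPM (234 to 247), a ratio of -0.12 (-0.17 to -0.07). Both ratios are small, and their signs were the same in each of the 10 alternative settings that could change them. Over the 10 bins, however, Fetub in the HFD section stepped up 4 times and down 5 times, with 264 CPM in the first bin and 254 CPM in the last, a log2 ratio of -0.06 (-0.14 to 0.03) that holds 0.

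The angiopoietin-like genes differed by less than 1.5-fold between pericentral and periportal spots. Angptl4 had 185 and 213 CPM in periportal and pericentral spots of the NCD section and 181 and 208 CPM in those of the HFD section, and its log2 ratio was 0.20 in both. Angptl6 had 17.3 and 18.7 CPM and 14.3 and 18.9 CPM, ratios of 0.11 (-0.22 to 0.45) and 0.40 (0.20 to 0.60). The HFD ratio of Angptl6 became 0.08 with spots drawn down to 1000 UMIs. Over the 10 HFD bins it was lowest in the first (10.6 CPM) and had 20.7 CPM in the last, a log2 ratio of 0.96 (0.60 to 1.33), but it stepped up 5 times and down 4 times. Angptl8 had 34.2 and 31.2 CPM in the NCD section, a ratio of -0.13 (-0.38 to 0.11), and 61.8 and 54.1 CPM in the HFD section, -0.19 (-0.30 to -0.09), which became 0.15 with spots drawn down to 1000 UMIs. For Angptl6 and Angptl8 in the NCD section no difference between positions was detectable at this depth.

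The NCD gradients were steeper with the spots off tissue subtracted, within the limit given above for what that takes away. With the mean of the NCD spots off tissue subtracted from each placed spot, an alternative chosen after seeing the data, the log2 ratio of Selenop in the NCD section became -0.89, that of Inhbe 1.13, that of Ahsg -0.46 and that of Rbp4 0.49. By that measure Selenop also passed 1.5-fold towards the periportal side. Little Lect2 was then left in periportal NCD spots, and its ratio of 6.70 rests on that remainder. In the HFD section the same subtraction left Selenop at -0.11, Inhbe at 0.74, Ahsg at -0.53 and Rbp4 at 0.38.

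**Figure D2:**
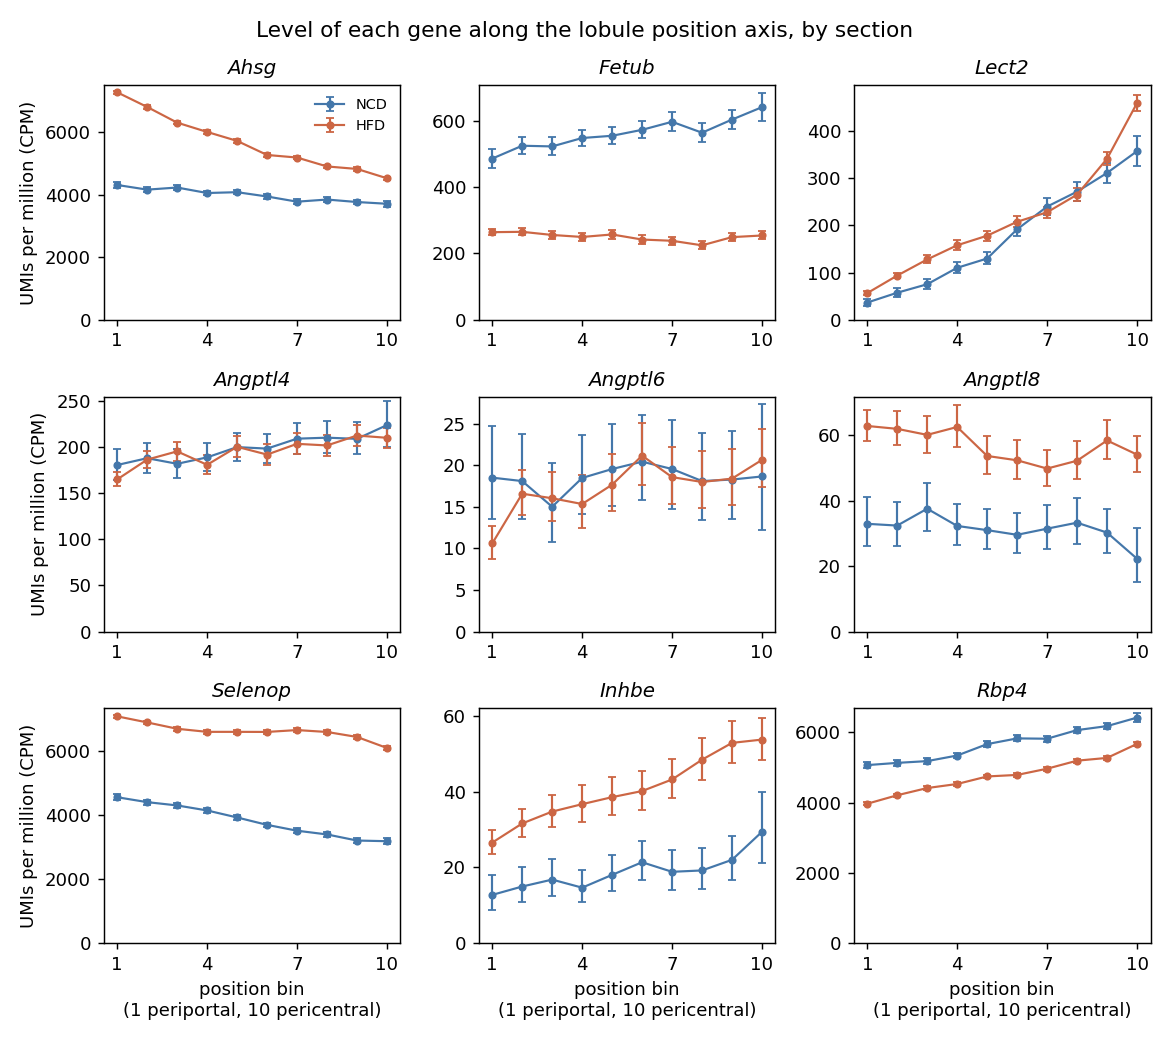
CPM of each gene in 10 equal bins of placed spots per section, from periportal (bin 1) to pericentral (bin 10), with 95% Poisson intervals for counting error; each panel has its own axis from 0. Lect2 rose at 9 of 9 steps in both sections, Ahsg fell at 9 of 9 steps in the HFD section and Selenop at 9 of 9 in the NCD section.

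The difference between the gradients of the 2 sections was read on the log2 scale, as HFD minus NCD. It was -0.35 (-0.37 to -0.32) for Ahsg, -0.33 (-0.41 to -0.25) for Fetub, -0.35 (-0.49 to -0.20) for Lect2, 0.30 (0.28 to 0.33) for Selenop and 0.10 (0.07 to 0.12) for Rbp4. For these 5 genes the counting interval leaves out 0. With the spots off tissue subtracted, however, the difference for Rbp4 turned to -0.11 and that for Ahsg shrank to -0.07, while those for Fetub and Selenop became -0.53 and 0.78. That for Lect2 became -4.63, which rests on the little Lect2 left in periportal NCD spots. For Angptl4, Angptl6, Angptl8 and Inhbe the interval holds 0, and the subtraction turned the sign for Angptl4, Angptl8 and Inhbe. With 1 section per diet these differences were not tested against the spread between animals.

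Read the other way, and without spots off tissue subtracted, the ratio between the diets differed between the position groups for some genes. These groups are orders within each section and not the same place in both. With the subtraction, the difference shrank for Ahsg and turned for Rbp4, as given above. Ahsg was 1.60-fold higher in the HFD section in periportal spots, 1.40-fold in midlobular spots and 1.26-fold in pericentral spots. Selenop ran the opposite way, with 1.57-fold, 1.72-fold and 1.94-fold. The log2 ratio of Fetub was -0.99, -1.17 and -1.32 from periportal to pericentral, the largest difference being in pericentral spots. Lect2 had 0.54 (0.41 to 0.67), 0.30 and 0.19 (0.13 to 0.26), and Rbp4 -0.30, -0.25 and -0.20. Angptl8 was level at 0.86, 0.86 and 0.80, and the intervals of Inhbe at its 3 positions, with log2 ratios of 1.05, 1.11 and 1.22, overlap. The median log2 ratio of all genes tested was 0.25, 0.26 and 0.21 at these positions.

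**Figure D3:**
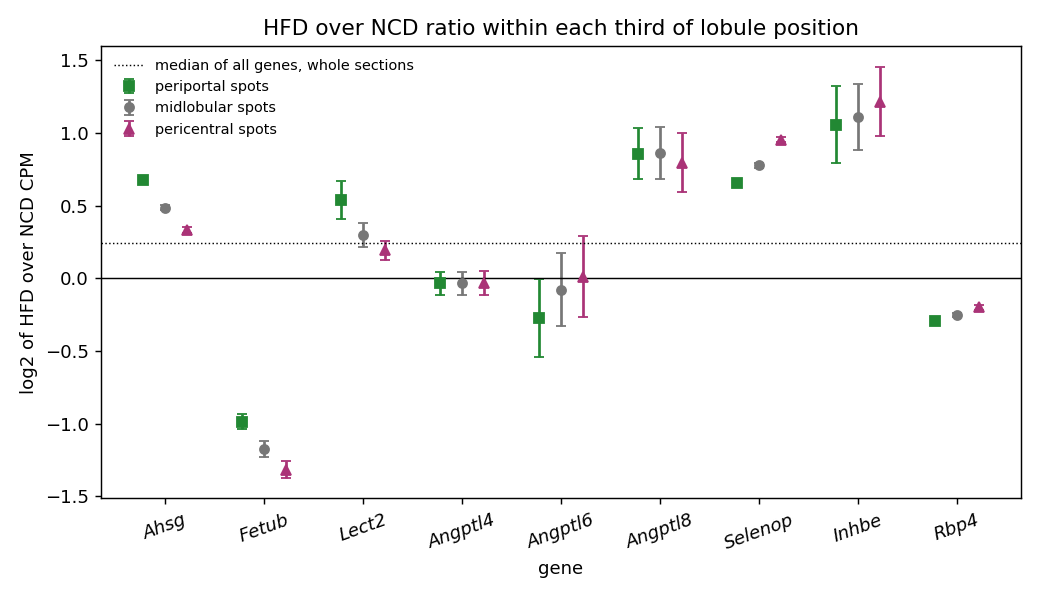
Log2 ratio of HFD over NCD CPM for each gene within periportal, midlobular and pericentral spots, with exact 95% intervals for counting error; the solid line is 0 and the dotted line the median of all genes over whole sections, 0.24. Ahsg falls from 0.68 to 0.33 towards the pericentral side, Selenop rises from 0.65 to 0.96, and Fetub lies at -0.99 or lower at each position.

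The genes were then set against lipid droplet genes (Plin2, Plin4, Plin5, Cidea, Cidec, Cideb, G0s2), which coat the stored fat and all 7 of which were higher in the HFD section, with sums of 782 and 1517 CPM. Within 5 depth strata of each section, spots with the highest list CPM were compared with those with the lowest. In the NCD section, with 710 spots on each side, Inhbe had 21.9 CPM in spots rich in the list and 14.4 CPM in spots poor in it, a log2 ratio of 0.61 (0.24 to 0.98). The other 8 genes lay between -0.15 and 0.06, and the pericentral placing markers differed by 0.09. Of the 9 genes, Inhbe had the highest ratio here. Rbp4 at 0.03 (0.01 to 0.05) and Ahsg at 0.02 (0.0003 to 0.05) also had wholly positive intervals.

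In the HFD section, with 895 spots on each side, Inhbe had 50.9 and 29.2 CPM, a log2 ratio of 0.80 (0.64 to 0.96), and Lect2 had 287 and 114 CPM, a ratio of 1.34. Ahsg ran the other way with 5012 and 6696 CPM, a ratio of -0.42. There, however, the pericentral placing markers also differed by 1.66, and the hepatocyte markers by -0.40, about as much as Ahsg. Taken within each of the 3 position groups, an alternative chosen after seeing the data that brought that difference down to 0.13, Inhbe had 45.8 and 34.8 CPM, a ratio of 0.39 (0.24 to 0.55), while Lect2 had 0.14 and Ahsg -0.12. The NCD value of Inhbe within position groups was 0.57 (0.19 to 0.96). Position was not fully matched by this split in the HFD section, where the pericentral markers kept their difference of 0.13 (0.12 to 0.14) and the periportal ones had -0.11, and the part of position in these ratios was not tested further. Angptl4 had 0.18 (0.11 to 0.25) in the HFD section by this measure, and Angptl8 -0.02 (-0.14 to 0.11).

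Spots rich in acute phase genes, which hepatocytes turn on in inflammation, held fewer pericentral markers. Of the 14 genes of that list 8 were higher and 1 lower in the HFD section, with sums of 13190 and 19080 CPM. Between spots rich and poor in the list, Lect2 had the ratios furthest from 0 among the 9 genes, -1.69 for NCD and -1.74 for HFD, and Inhbe had -0.52 and -0.74. Ahsg had a log2 ratio of 0.23 for NCD and 0.54 for HFD, and the pericentral markers -1.65 and -2.21. The hepatocyte markers also differed, by 0.49 for NCD and 0.44 for HFD. The part of position in these ratios was not tested beyond the split by position group. Within position groups the Ahsg ratios were 0.18 (0.16 to 0.21) and 0.23 (0.21 to 0.24), those of Lect2 -0.39 and -0.51 and those of Inhbe -0.09 and -0.17, while the pericentral markers still differed by -0.35 and -0.70. For hepatic stellate markers, whose poor NCD spots held 0 UMIs of the list, the ratios of the 9 genes lay between -0.09 and 0.20 in the NCD section and between -0.19 and 0.17 in the HFD section.

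Correlations between the 9 genes across single spots were weak. With spots drawn down to 3000 UMIs, the 36 pairs had Pearson correlations of -0.17 to 0.09 over 2107 NCD spots and of -0.15 to 0.17 over 3538 HFD spots. The lowest was Lect2 with Selenop in the NCD section and Lect2 with Ahsg in the HFD section, and the highest was Lect2 with Rbp4 in both. Of the 36 pairs, 35 lay within 0.1 of 0 in the NCD and 32 in the HFD section. Spots of a section share a library and neighbouring tissue, and with a median of 0 UMIs per spot for Lect2, Angptl4, Angptl6, Angptl8 and Inhbe at this depth a weak correlation is no finding.

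The genes most like each member were found over the 20 position bins of both sections, among 6408 genes with at least 1000 UMIs, by Pearson correlation of log2 CPM. These bins share 2 libraries, so a difference between the sections alone gives a high value. Lect2 was closest to Gsta3 (0.99), Slco1b2 (0.99) and Rdh9 (0.98), and within each section alone Gsta3 and Rdh9 also had 0.99. Rbp4 was closest to Acot1, Cyp2c37 and Eci2, each 0.98, and Ahsg to Itih4 (0.99), Gc (0.98) and Agt (0.98), although Agt had a correlation of 0.01 within the NCD section.

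Among the genes closest to Inhbe were Hadhb (0.99) and Tkt (0.98), each with 0.91 within the NCD section alone. Angptl8 was closest to Sc5d, Acaca and Tkfc (0.98, 0.97 and 0.97). Within the sections alone these 3 had lower values, 0.83, 0.78 and 0.73 for NCD and 0.68, 0.77 and 0.67 for HFD. Angptl4 was closest to Cib2, Nxpe2 and Cyb5a (0.94, 0.93 and 0.92), and Selenop to Apoc2, Trf and Mfsd2a, each 0.99, although Mfsd2a had 0.09 within the HFD section. Fetub was closest to Ugt2a3, Eif4ebp3 and Osgin1, each 0.99 over both sections but 0.18, 0.24 and 0.25 within the HFD section. Angptl6 had the weakest partners, Ndufa7, Clec4f and Mrpl12 (0.81, 0.79 and 0.77). These had -0.26, 0.06 and 0.58 within the NCD section and 0.92, 0.92 and 0.86 within the HFD section.

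Genes that work with the members were read from lists, with the same fold of 1.5, which 25.5% of all genes tested passed upwards and 5.01% downwards. Of 10 genes around lipoprotein lipase, the enzyme on which the products of Angptl4 and Angptl8 act, 3 were higher in the HFD section, 2 lower and 5 within. Apoc2, its cofactor, had a log2 ratio of 2.08, the endothelial lipase gene Lipg 1.51 and Lpl itself 1.27, while the hepatic lipase gene Lipc had -0.66 and Apoa5 -0.67. Of the other angiopoietin-like genes Angptl2 had 1.01.

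Of 5 retinol transport genes with enough UMIs, 3 were higher and 0 lower. Ttr, which encodes transthyretin, had 10858 CPM in the NCD and 16727 CPM in the HFD section, a log2 ratio of 0.62, against -0.26 for Rbp4, its partner in plasma. Rbp4 and Ttr thus differed in direction. The retinol importer gene Stra6l, also known as Rbpr2, had 1.10.

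Of 8 activin and follistatin genes tested 2 were higher, 1 lower and 5 within. Inhbc, which encodes activin C and is the coding gene nearest to Inhbe, stood at 51.8 and 53.9 CPM, a log2 ratio of 0.06, against 1.09 for Inhbe. Both leaned to pericentral spots, Inhbc with 0.49 in the NCD and 0.55 in the HFD section. Inhbb went from 2.45 to 12.2 CPM (2.32), and Fst, an activin antagonist, from 1.93 to 3.45 CPM (0.84). Of 15 selenoprotein genes 2 were higher, Dio1 with 1.22 and Gpx4 with 1.06, and 13 lay within 1.5-fold, among them Sephs2, which makes the selenium donor, with -0.37. Of 8 receptor genes tested 2 were higher and 6 lay within 1.5-fold. Cd209a, a Lect2 receptor, had 1.32 (0.50 to 2.25) on 14 and 87 UMIs and was named after its value was seen. Tie1, another Lect2 receptor, had 0.59, while Met, among the 6 within, had -0.27 (-0.39 to -0.15). Lrp8, through which brain and testis take up Selenop, had 2 and 5 UMIs.

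Other hepatokines were read in the same way, and their spread was not tested against that of the 9 genes. Of 17, 8 were higher, 3 lower and 6 within, from Gdf15 at 4.56, Gpnmb at 4.50 and Manf at 2.50 to Serpinb1a at -1.03, Igfbp2 at -1.61 and the hepcidin gene Hamp at -2.72. Fgf21 went from 5.20 to 24.1 CPM (2.21).

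Regulator target lists were read beside the members they are known to include. Of 12 PPAR-alpha targets 3 were higher, 3 lower and 6 within, with Cidec at 4.37 and Vnn1 at 1.22 against Cyp4a14 at -1.70 and Cyp4a10 at -1.48, and Angptl4 lay between these ends at -0.04. Of 9 lipogenic genes tested, a programme switched on with insulin and glucose as Angptl8 is, 7 were higher and 0 lower, with Thrsp at 2.70, Fasn at 1.63 and Pklr at 1.13. Scd1, the most abundant of them, had 0.05, and the sum of the list went from 5977 to 6634 CPM, a log2 ratio of 0.15. Of 7 amino acid stress genes of ATF4 tested 4 were higher and 1 lower, Ddit3 at 2.18, Chac1 at 1.55 and Trib3 at 1.23 against Asns at -2.63. Asns had 80 and 32 UMIs and was named after its value was seen.

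The genes were located in GENCODE M21, on the mouse assembly GRCm38 (mm10). Ahsg lies at chr16:22891277-22899449 and Fetub at chr16:22918334-22939778, both on the plus strand, 18885 bases apart with 0 coding genes between them. Their opposite ratios thus come from neighbouring genes. Inhbe lies at chr10:127348857-127354411 on the minus strand, 1911 bases from Inhbc. Angptl8 lies at chr9:21835510-21837347 within Dock6 on the other strand, and Selenop and Angptl6 overlap Ccdc152 and A230050P20Rik on the other strand. The antisense genes Gm47200 and Gm30505 overlap Inhbe and Ahsg on the other strand. Whether the counting used the strand is not given in the sources used here.

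A motif search was chosen after seeing the data. Windows around gene starts, from 250 bases before to 50 after, were read on both strands for 5 motifs: TGATGCAA (the core of the C/EBP-ATF response element), CACGTG (an E-box), 2 copies of AGGTCA in a row with 1 base between them (the direct repeat bound by PPAR-alpha with RXR), TATAAA and GTAAACA (a FOXO core). The windows are those of RefSeq on GRCm38.p6, and 8 of the 9 genes, all but Angptl4, had an entry, with 12 windows in all. TGATGCAA was in 0.895% of all 32851 windows and in those of 2 members, Angptl8 and Inhbe, and of 1 of 9 ATF4 list genes, Chac1. The motif starts 130 bases before the start of Angptl8 and, as its reverse complement TTGCATCA, 181 bases before the RefSeq start of Inhbe. The 30 bases around it are shown for the 2 members that hold it, with the motif in capitals. Both were higher in the HFD section, as was Selenop without it. The Inhbe stretch lies at chr10:127352011-127352040 on the minus strand, inside an exon that GENCODE gives for Inhbe, and the Angptl8 stretch lies at chr9:21835369-21835398 on the plus strand, upstream of the gene and in no exon of it:
Inhbe: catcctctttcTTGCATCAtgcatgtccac
Angptl8: agccatcagtcTGATGCAAtggctgagcct
The E-box (7.15% of windows) and the direct repeat (0.0396%) were in the windows of 0 members. TATAAA (13.6% of windows) and GTAAACA (3.65%) were each in 3 of the 12 windows, 1 each of Fetub, Selenop and Rbp4, and for Fetub and Rbp4 the 2 motifs lay in different windows of the gene. A match describes letters in a window, not a site in use.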

How the data were processed

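The deposited tables hold UMI counts per gene and spot, which the authors made with Space Ranger 1.3.1 per the file headers of the spots over tissue (build mm10 per the submitters' processing notes); no normalization had been applied. The tables of all spots name Cell Ranger 4 in their header. The annotation release is not given in the sources used here. The sections share 3173 spot barcodes, which mark positions on the slide and not cells.

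UMIs of a gene were summed over spots and divided by all UMIs of those spots (CPM). Sums have exact Poisson intervals, ratios of sums exact conditional binomial intervals and shares of spots exact Clopper-Pearson intervals, all at 95%. With 1 section per diet no test was made. A gene counts as higher or lower from 1.5-fold, among genes with at least 100 UMIs over the groups compared. Position used 7 pericentral and 7 periportal placing markers. Spots were drawn down without replacement with seed 1, and 0.5 was added to counts for the likeness search. The motif search and the split of list groups by position were chosen after seeing the data. The members and lists were chosen with earlier results of these data known. From each list the genes with the 3 highest and 3 lowest ratios were eligible to be named, given at least 200 UMIs, and direct partners of members (among them Ttr, Lpl, Inhbc and Lrp8) besides, as were for each member the 3 genes most like it; Fgf21, Cd209a and Asns were added after their values were seen. Ddit3 occurs under 2 identifiers, and the first was used. Software was Python 3.11.15 with scipy 1.17.1, numpy 2.4.6, matplotlib 3.10.9 and pandas 2.3.3. Spot coordinates and images were not used here.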

Additional observations from a re-analysis of the deposited data

Results flagged for a closer look

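Fetub was picked out because its gradient along the lobule had opposite signs in the 2 sections. The log2 ratio of pericentral over periportal spots was 0.21 for NCD and -0.12 for HFD, and each counting interval leaves out 0. Between the outer of 10 HFD bins, however, the ratio was -0.06 (-0.14 to 0.03), which holds 0, with 4 steps up and 5 down. The difference between the sections was not tested, since each diet has 1 section.

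The 9 genes were also picked out for their signal in spots off tissue, which the reported comparisons leave out and 3 of the alternative settings use. Together they had 14824 CPM in the 1300 NCD spots off tissue (14734 to 14916) and 13697 CPM in the 1398 HFD spots off tissue (13542 to 13853). The level that 3 counts would give is 0.437 and 1.38 CPM. Sums of 101858 and 29820 UMIs could not fall below it, so that comparison shows nothing further. Over tissue the sums were 14527 and 17967 CPM, so the NCD spots off tissue held slightly more of these transcripts, in CPM, than the NCD spots over tissue.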

How the results depend on the processing

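Of 60 counts of members under alternative settings, 51 stayed within 1.5 times the count reported and 9 did not; no member that passed 1.5-fold changed sign. A minimum of 100 UMIs per member is not among them, since all 9 members passed it and no value could change. The count lower in the HFD section was 0 with spots off tissue subtracted, which took out Fetub. The count higher in pericentral NCD spots was 2 instead of 1, with Inhbe added, when spots were placed by the check markers, placed without Cyp2e1 and Cyp2f2, split into 5 equal groups of which the outer ones were compared, drawn down to 1000 UMIs, or had the spots off tissue subtracted, and with that subtraction the count higher in periportal NCD spots was 1, Selenop. The count higher in pericentral HFD spots was 1, Lect2, with spots drawn down to 1000 UMIs, and the count higher in periportal HFD spots was 1, Ahsg, with the outer 2 of 5 groups. The cause was not tested. The count higher in the HFD section ranged from 2, relative to the median of genes with at least 1000 UMIs, to 4, with spots off tissue subtracted. The log2 ratio of HFD over NCD ranged from 0.90 to 1.46 for Inhbe, from 0.66 to 0.96 for Angptl8, from 0.58 to 0.89 for Selenop, from -0.50 to -0.17 for Rbp4, from 0.34 to 1.15 for Ahsg, from -1.34 to -0.36 for Fetub, from -0.13 to 0.49 for Lect2, from -0.23 to 0.04 for Angptl4 and from -0.35 to 0.29 for Angptl6 over these 10 alternatives. The settings with all spots of the capture area, with 10000 to 20000 UMIs and with off-tissue subtraction by position were chosen after seeing the data. No paired analysis was possible because each diet has 1 section, and the replicate number 1 that both carry pairs nothing. In the NCD section 22.8% of spots had under 1000 UMIs, which limits what can be read for Angptl6, Angptl8 and Inhbe by position.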
